A study of Mus musculus with 12 samples.

Results

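Genes of cholesterol and fatty acid synthesis were examined in transcript catalogues of BV-2 cells, a mouse microglial line that grows without limit in culture. The set was chosen by name: 38 genes that make sterols or fatty acids, activate fatty acids, or control these pathways through SREBP and LXR. Of these, 37 were listed in at least 1 catalogue, out of 14275 genes listed in all. The 12 libraries formed 4 groups of 3: untreated control cells, cells given lipopolysaccharide (LPS, a bacterial cell wall component), cells given NMN (nicotinamide mononucleotide, from which cells make NAD), and cells given both. The study set LPS beside LPS+NMN to ask which genes NMN changes in cells exposed to LPS. All groups share the same cell line and carry no stated genetic change, and no dose or time is given. The labels give the cell type as macroglia. A catalogue lists, for each gene, the first and last exons of its assembled transcripts, the exons they skip, the introns they retain and the exon ends that vary. It holds no read count, so the values below are numbers of distinct listed events per gene and library and not expression levels. The labels do not say whether replicates are separate cultures, and the p-values therefore reflect only how far these libraries differ, which may be technical.

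Cells make cholesterol from acetyl-CoA through mevalonate, isoprenoids, squalene and a series of sterol intermediates. SREBP transcription factors are held in the endoplasmic reticulum by SCAP and INSIG proteins when sterol is plentiful and are released to the Golgi, cut and sent to the nucleus when it is scarce. LXR receptors respond to oxysterols and raise genes that export cholesterol. In macrophages and microglia these pathways are known to be coupled to inflammatory activation, and acyl-CoA synthetases of the ACSL family supply the activated fatty acids that enter membrane lipids.

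Per library, 11911 to 12246 genes and 50784 to 55787 distinct events were listed, and control replicate 1 had the most of both. Of 11 microglia and macrophage markers, 9 were in every catalogue and the other 2, Cx3cr1 and P2ry12, in some, with 32 to 44 summed events per library. Of 5 astrocyte markers 4 were in no catalogue (Aqp4, Aldh1l1, Slc1a3 and Gja1), and of 4 neuronal markers 3 were in none (Rbfox3, Snap25 and Syt1). The remaining astrocyte marker, Slc1a2, was in every catalogue with 2 or 3 events. The remaining neuronal marker, Tubb3, was in every catalogue with 2. In bulk libraries fewer cells of a type and less RNA per cell cannot be told apart.

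The named set was listed almost whole. Of the 38 genes, 36 were in all 12 catalogues, Scd1 was in 6 and Fads2, the delta-6 desaturase, in none. The mean number of events over the 12 libraries ranged from 1 for Scd1 to 12.6 for Srebf1, with a median of 3.25, against 3.83 over all 10858 genes listed in every library. A listed gene has at least 2 events, a first and a last exon, and Ebp, the sterol isomerase, had exactly 2 in every library. Summed over the 37 genes, the control libraries held 153, 146 and 146 events and the LPS libraries 161, 149 and 156. The NMN libraries held 140, 148 and 149, and those with LPS and NMN 140, 139 and 151. The ranges of all groups overlapped or met, LPS and NMN at 149 events.

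**Figure D1:**
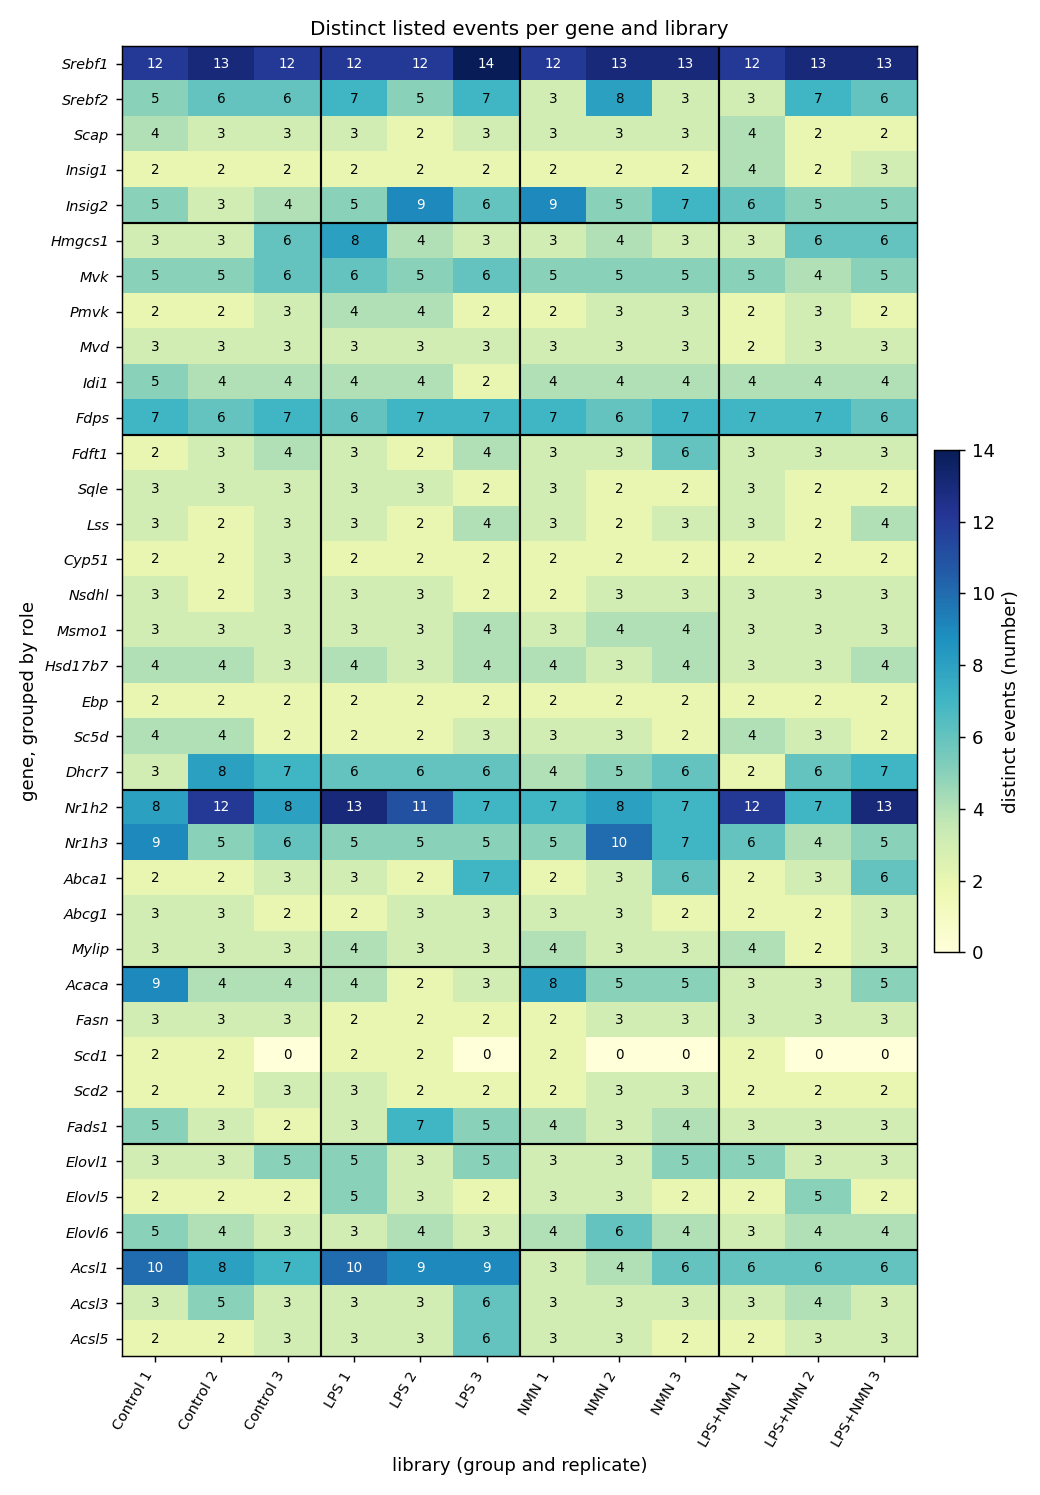
Number of distinct listed events (colour and printed number) for each of the 37 listed genes (vertical axis, grouped by role with black lines between roles) in each of the 12 libraries (horizontal axis). Most genes keep 2 to 6 events in all libraries, Srebf1 stands highest with 12 to 14, and Acsl1 is lower in the 6 libraries with NMN than in the 6 without.

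No gene of the set passed the test in any comparison. The test was limma on log2(events + 1) over 11671 genes with Benjamini-Hochberg adjustment at 0.05, and 36 members could be tested, Ebp being constant. In LPS against control 0 of 36 members were called, where 0.300% of all genes tested were, and 4 members had an unadjusted p under 0.05, a share of 11.1% against 7.47% of all genes. In LPS+NMN against LPS 0 of 36 were called, where 0 genes of all tested were, and 3 members had an unadjusted p under 0.05 (8.33%, against 4.46% of all genes). In NMN against control 0 of 36 were called (0.231% of all genes) and 2 had an unadjusted p under 0.05 (5.56%, against 7.00%). In LPS+NMN against control 0 were called (0.334% of all genes) and 1 had an unadjusted p under 0.05 (2.78%, against 7.45%). In the interaction, which sets the NMN effect in LPS-treated cells against that in untreated cells, 0 were called (0.0428% of all genes) and 2 had an unadjusted p under 0.05 (5.56%, against 5.75%). The LPS libraries enter both LPS against control and LPS+NMN against LPS, and the controls enter 3 of the comparisons.

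The members' median differences lay close to 0. In LPS against control the mean log2 value was higher for 18 of 36 members and lower for 9, with a median difference of 0.02 against 0 over all genes, of which 39.4% were higher and 45.4% lower. In LPS+NMN against LPS 11 members were higher and 22 lower, with a median of -0.11 against 0 over all genes (42.7% higher and 39.6% lower). NMN against control had 14 members higher and 14 lower (median 0, as over all genes, with 40.7% higher and 43.4% lower). LPS+NMN against control had 11 higher and 20 lower (median -0.07, against 0 over all genes, with 40.9% higher and 43.6% lower). These counts describe the set and carry no test of their own.

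**Figure D2:**
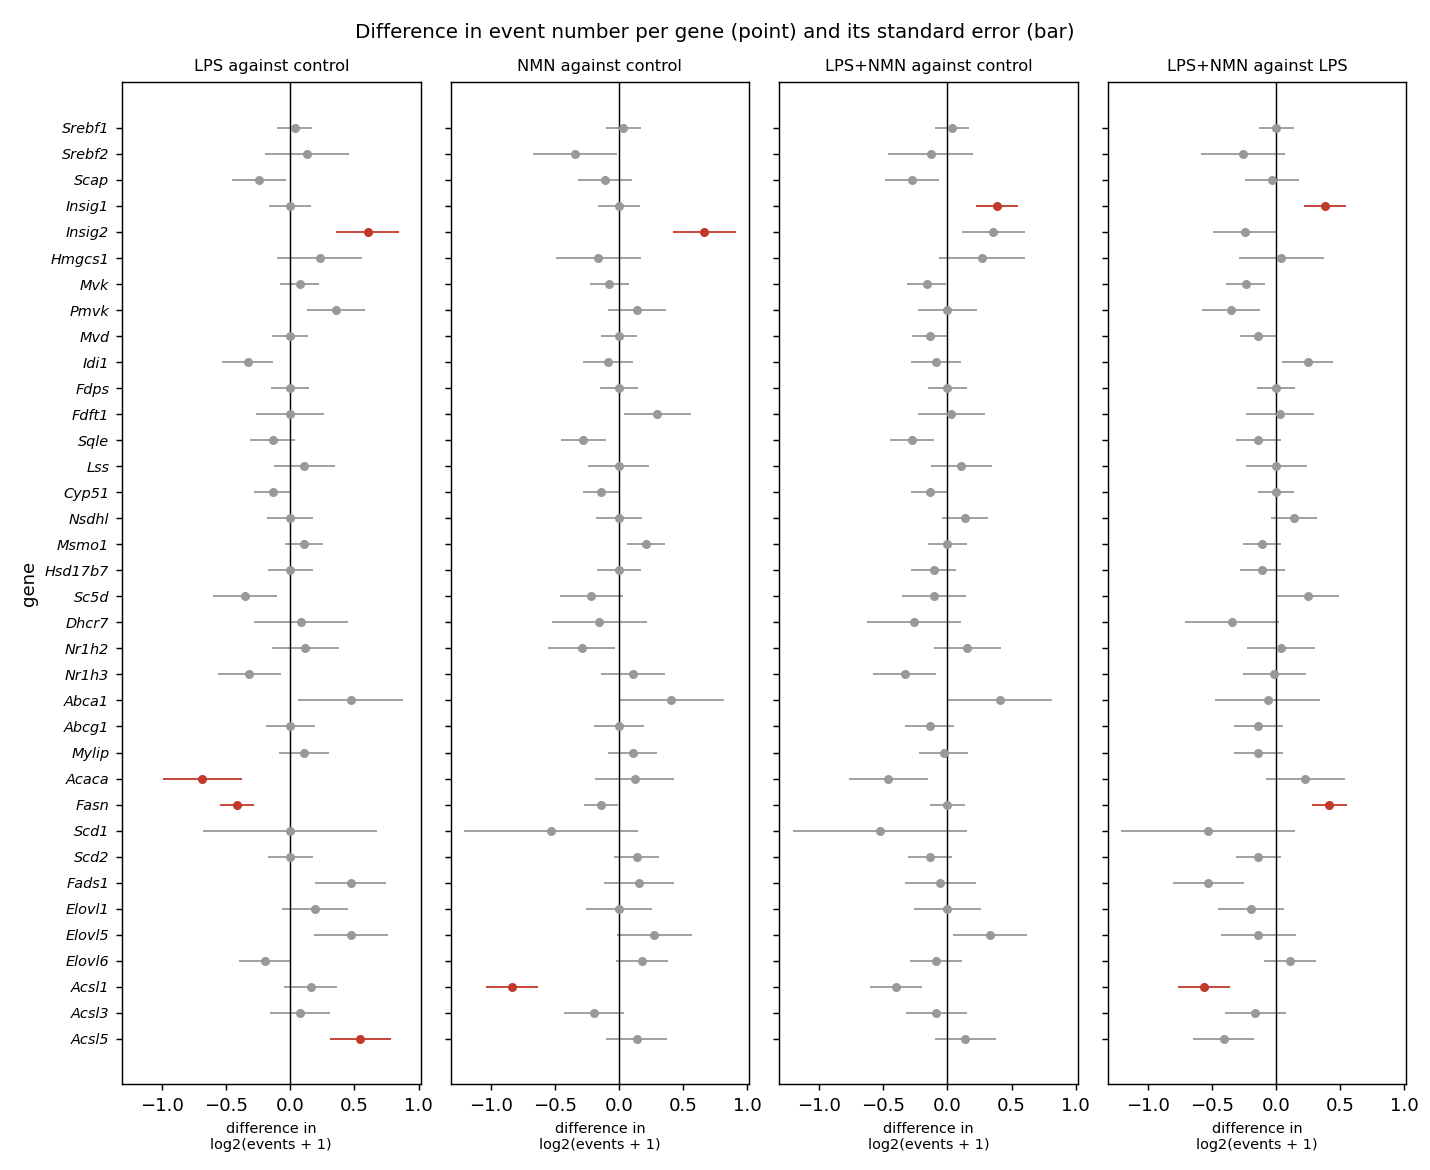
Difference in log2(events + 1) for each of the 36 tested members (vertical axis) in 4 comparisons (panels); points are the fitted differences and bars their standard errors from limma. Red marks an unadjusted p under 0.05; no point passed after adjustment, and the lowest difference is that of Acsl1 in NMN against control (-0.83).

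Among the genes of SREBP control, the 2 INSIG genes had unadjusted p-values under 0.05 and the transcription factors did not. Srebf1, which encodes the SREBP-1 proteins that drive fatty acid genes (chromosome 11, 60199089 to 60222581, minus strand, GRCm38), had 12, 13 and 12 events in control, 12, 12 and 14 with LPS, 12, 13 and 13 with NMN, and 12, 13 and 13 with both. These values overlapped in all groups, and the differences ranged no further than 0.04 from control (limma adjusted p = 1 in each). Its last exons numbered 5 in every library. Srebf2, the driver of cholesterol genes, had 5, 6 and 6 events in control, 7, 5 and 7 with LPS, 3, 8 and 3 with NMN, and 3, 7 and 6 with both. The NMN groups held both the lowest and the highest value, and no difference passed (NMN against control -0.34 ± 0.33 SE, limma adjusted p = 0.873). The alternative 5′ edges of exon 16 of Srebf2-201, a coding exon of 169 bases with a shorter form of 133, were listed in all control and LPS libraries, in 1 NMN library and in 2 with both. Scap, the sterol-sensing escort, had 4, 3 and 3 events in control, 3, 2 and 3 with LPS, 3 in each NMN library, and 4, 2 and 2 with both.

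Insig2, one of the 2 retention proteins, had the largest differences from control in this group with LPS alone and with NMN alone. Control libraries held 5, 3 and 4 events, LPS libraries 5, 9 and 6, NMN libraries 9, 5 and 7, and those with both 6, 5 and 5. Control was lowest, touching the treated groups only at 5. The log2 difference was 0.60 ± 0.24 in LPS against control (limma adjusted p = 0.554, unadjusted p = 0.030) and 0.67 ± 0.24 in NMN against control (adjusted p = 0.544). Without LPS replicate 2, which held 9 events, the LPS difference was 0.39 (adjusted p = 0.819), and with first and last exons alone both differences were 0.28. Splicing events of Insig2 numbered 2, 1 and 2 in control, 2, 6 and 3 with LPS, 6, 2 and 4 with NMN, and 2, 1 and 1 with both, so that 1 LPS and 1 NMN library stood at the control level. They included alternative ends of exon 2 of Insig2-201, listed in 2 LPS libraries and 1 NMN library and in no other. Each such pair of ends counts as 2 events. In LPS replicate 2 and NMN replicate 1 the same run of skipped exons was also listed under 2 types. A first exon of Insig2-204 was in 1 control library, 2 with LPS and all 6 with NMN. Insig1, the other retention protein and itself an SREBP target, had 2 events in all 9 libraries of the control, LPS and NMN groups and 4, 2 and 3 with both (0.38 ± 0.16 against either control or LPS, limma adjusted p = 0.615 and 0.93). Without LPS+NMN replicate 1 both differences were 0.21, and with first and last exons alone 0.14. The excess came from alternative ends of coding exon 2 in replicate 1 and a second first exon in replicate 3, which are different events.

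Summed over the 5 genes of SREBP control, events numbered 28, 27 and 27 in control, 29, 30 and 32 with LPS, 29, 31 and 28 with NMN, and 29 in each library with both. Control was lowest and met only the NMN group, at 28. These sums include Insig2, with the differences from control given above. In LPS against control Srebf1 differed by 0.03, Srebf2 by 0.13, Insig1 by 0 and Scap by -0.25. In NMN against control these differences were 0.04, -0.34, 0 and -0.11, so a rise was not shared by the 5 genes.

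For the mevalonate and isoprenoid enzymes the groups overlapped. Hmgcs1, which makes HMG-CoA, had 3, 3 and 6 events in control, 8, 4 and 3 with LPS, 3, 4 and 3 with NMN, and 3, 6 and 6 with both. Its spread inside the LPS group was as wide as that over all groups, and its differences did not pass (LPS against control 0.23 ± 0.33, limma adjusted p = 0.873). A noncoding exon of 158 bases, exon 2 of Hmgcs1-203, was listed as skipped in 1 control, 1 LPS and 1 LPS+NMN library. Its shorter form of 59 bases with the same 3′ edge, exon 2 of Hmgcs1-202, was listed as skipped in all 12. Mvk, the mevalonate kinase, had 4 to 6 events, Pmvk, the next kinase, 2 to 4, and Idi1, the isomerase of the isoprene units, 2 to 5. Fdps, farnesyl diphosphate synthase, had 7, 6 and 7 events in control, 6, 7 and 7 with LPS, 7, 6 and 7 with NMN, and 7, 7 and 6 with both. Idi1 held 4 or 5 events in 11 libraries and 2 in LPS replicate 3, in which the alternative ends of its exon 4 were not listed.

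Mvd, the decarboxylase that ends the mevalonate pathway (chromosome 8, 122433601 to 122443422, minus strand, GRCm38), kept nearly the same number of events while the events themselves differed. It had 3 events in 11 libraries and 2 in LPS+NMN replicate 1. The first exon of Mvd-201 was listed in 8 libraries. In the other 4 (control replicates 2 and 3, LPS replicate 3 and LPS+NMN replicate 3) 2 of the 3 events lay on the opposite strand. In 7 of the libraries that held its first exon, the last exon listed lay beyond the annotated end of the gene. The annotated last exon was listed in LPS+NMN replicate 1 alone. Of 329 distinct events of the set, 16 (4.86%), in 6 genes, were on the strand opposite to the gene, against 6.88% of events over all annotated genes. A further 17, also in 6 genes, lay outside the gene's annotated span on its own strand.

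The enzymes from squalene to cholesterol had few events, and their groups overlapped. Sqle, squalene epoxidase, had 3 events in each control library, 3, 3 and 2 with LPS, 3, 2 and 2 with NMN, and 3, 2 and 2 with both. Beside its first and last exon, the event was the skipping of exon 7, listed in all 3 control libraries, 2 with LPS, 1 with NMN and 1 with both. NMN against control differed by -0.28 ± 0.17 (limma adjusted p = 0.804). Cyp51, lanosterol demethylase, had 2 events in 11 libraries and 3 in control replicate 3. Fdft1, squalene synthase, ranged from 2 to 6, Lss, lanosterol synthase, from 2 to 4, and Nsdhl, Msmo1, Hsd17b7 and Sc5d between 2 and 4. Dhcr7, which makes the last step to cholesterol in one branch, varied most, with 3, 8 and 7 events in control, 6 in each LPS library, 4, 5 and 6 with NMN, and 2, 6 and 7 with both. The first exon of Dhcr7-201 was listed in all 3 control libraries, 1 with LPS, none with NMN and 1 with both. Another first exon, that of Dhcr7-207, was listed in 2 control libraries, all 3 with LPS, none with NMN and 1 with both.

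The LXR receptors had many first exons and wide spread. Nr1h2, which encodes LXR beta, had 8, 12 and 8 events in control, 13, 11 and 7 with LPS, 7, 8 and 7 with NMN, and 12, 7 and 13 with both. The NMN libraries stayed at 7 or 8 while each other group reached 12 or 13. All groups overlapped and no difference passed (NMN against control -0.29 ± 0.26, limma adjusted p = 0.873). The libraries with 11 or more events were those that listed the first exon of Nr1h2-212 and the skipping of exon 3 of Nr1h2-201, a partly coding exon of 58 bases, which were 1 in control, 2 with LPS, 0 with NMN and 2 with both. Nr1h3, which encodes LXR alpha, had 9, 5 and 6 events in control, 5 in each LPS library, 5, 10 and 7 with NMN, and 6, 4 and 5 with both. In its highest libraries, control replicate 1 and NMN replicate 2, 3 and 4 splicing events lay outside the annotated gene. The first exon of Nr1h3-207 was listed in no control library, 2 with LPS, all 3 with NMN and 2 with both. The annotated last exon of Nr1h3-201 was listed in 1 control library, 0 with LPS, 1 with NMN and all 3 with both.

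Among LXR targets, Abca1, the cholesterol exporter, had 2, 2 and 3 events in control, 3, 2 and 7 with LPS, 2, 3 and 6 with NMN, and 2, 3 and 6 with both. Every group, control included, had its highest value in replicate 3. All the added events there were splicing events, 1 in control and 5, 4 and 4 in the treated groups. Abca1 was the 1 member whose positions matched GRCm38 without a shift. Abcg1, a second exporter, had 2 or 3 events in every library, yet its main first exon, exon 1 of Abcg1-201, was listed in all control libraries, 2 with LPS, none with NMN and 2 with both. In NMN replicate 3 and LPS+NMN replicate 1 the only 2 events under its name were on the opposite strand. Mylip, a ubiquitin ligase that degrades a lipoprotein receptor, had 2 to 4 events.

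Fasn, fatty acid synthase (chromosome 11, 120805846 to 120824547, minus strand, GRCm38), separated the LPS group. It had 3 events in each control library, 2 in each LPS library, 2, 3 and 3 with NMN, and 3 in each library with both. LPS did not overlap control or LPS+NMN and overlapped NMN at 2. Of all genes tested, 5.21% had groups that did not overlap in LPS against control, where Fasn was the only such member; without 1 of the control or LPS libraries 2 to 4 members had separate groups. For LPS+NMN against LPS the share was 3.22%, and 2 members (Fasn and Acsl1) did so. The log2 difference was -0.42 ± 0.14 in LPS against control (limma adjusted p = 0.361, unadjusted p = 0.0098) and 0.42 ± 0.14 in LPS+NMN against LPS (adjusted p = 0.822), both resting on the same LPS libraries. One event made the difference. It was the first exon of Fasn-204, a coding transcript of 2 exons, whose annotated span is 120823226 to 120823780 on chromosome 11 (GRCm38). It was listed in 8 libraries: all control, none with LPS, 2 with NMN and all with both. The first exon of the full-length transcript Fasn-201 (exon 1 of 43) and its last exon were listed in all 12.

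Acaca, acetyl-CoA carboxylase, which commits carbon to fatty acids, had 9, 4 and 4 events in control, 4, 2 and 3 with LPS, 8, 5 and 5 with NMN, and 3, 3 and 5 with both. LPS was lowest and met control at 4, and control replicate 1 stood far above the other controls. The difference in LPS against control was -0.69 ± 0.31 (limma adjusted p = 0.646, unadjusted p = 0.047) and ranged from -0.86 to -0.35 over the other settings tried, the smallest being without control replicate 1. An unannotated first exon of Acaca was in 1 control library and all 3 NMN libraries and in no LPS or LPS+NMN library. First exons of Acaca numbered 3, 2 and 2 in control, 1 in each LPS library, 5, 2 and 3 with NMN, and 1, 1 and 2 with both.

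The stearoyl-CoA desaturases introduce the double bond of oleate. Scd1 was listed with 2 events in control replicates 1 and 2, LPS replicates 1 and 2, NMN replicate 1 and LPS+NMN replicate 1, and was absent elsewhere. Its listed last exon was, in all 6, an internal exon of Scd1-201 (exon 5 of 6), and in 5 of them its first exon was exon 4, so that the listed transcripts were fragments. Scd2, the form known to dominate in brain, had 2, 2 and 3 events in control, 3, 2 and 2 with LPS, 2, 3 and 3 with NMN, and 2 in each library with both. Its annotated last exon was in 11 libraries. The 2 genes are close in sequence and reads may have been shared between them, which was not tested. Fads1, the delta-5 desaturase, had 5, 3 and 2 events in control, 3, 7 and 5 with LPS, 4, 3 and 4 with NMN, and 3 in each library with both. LPS+NMN against LPS differed by -0.53 ± 0.28 (limma adjusted p = 0.93) and the groups met at 3. Without LPS replicate 2, which held 7 events, the difference was -0.29, and without LPS replicate 1 it was -0.79.

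The elongases extend fatty acids in the endoplasmic reticulum. Elovl1, Elovl5 and Elovl6 had 3 to 5, 2 to 5 and 3 to 6 events. Elovl1 listed the annotated last exon of Elovl1-201 in LPS replicates 2 and 3 only, and in those libraries the last exon of the short form Elovl1-205 was missing. Elovl5 had 2 events in each control library and 5, 3 and 2 with LPS. Its second first exon, that of Elovl5-202, was in 2 LPS and 2 NMN libraries and in none of control or LPS+NMN.

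Acsl1, a long-chain acyl-CoA synthetase known from inflammatory macrophages (chromosome 8, 46471037 to 46536051, plus strand, GRCm38), had the lowest p-value of the set. Control libraries listed 10, 8 and 7 events and LPS libraries 10, 9 and 9. NMN libraries listed 3, 4 and 6, and those with both 6, 6 and 6. All 6 libraries with NMN lay below all 6 without it. Of all genes tested, 4.51% had separate groups when NMN was set against control and 5.05% when LPS+NMN was; in each, Acsl1 was the only such member. Without 1 of the libraries compared, 1 to 4 members had separate groups in the first and 1 to 3 in the second. The log2 difference was -0.83 ± 0.20 in NMN against control (limma adjusted p = 0.255, unadjusted p = 0.0016), -0.56 ± 0.20 in LPS+NMN against LPS (adjusted p = 0.858) and -0.40 ± 0.20 in LPS+NMN against control (adjusted p = 0.704). When each library's count of listed genes was added to the model, the first had an adjusted p of 0.0622, and without NMN replicate 3 an adjusted p of 0.0591. It ranged from -1.53 with splicing events alone (adjusted p = 0.501) to -0.11 with first and last exons alone (adjusted p = 0.823).

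The difference in Acsl1 lay mostly in splicing events. They numbered 7, 5 and 3 in control, 7, 5 and 6 with LPS, 0, 1 and 3 with NMN, and 3 in each library with both, while first exons numbered 2 or 3 and the last exon 1 everywhere (in control replicate 2 and NMN replicate 2 that last exon was on the opposite strand). By splicing events alone, control met both NMN groups at 3. Control replicate 3 stood above them in all events only through a further first exon, that of Acsl1-202, listed in 1 library. Skipping of exon 2 of Acsl1-201, which holds the start codon, was listed in all 3 control libraries, 2 with LPS, none with NMN and 1 with both. The run from noncoding exon 2 of Acsl1-207 to this exon was listed as skipped in 2, 2, 0 and 1 libraries. Skipping of that noncoding exon alone, the most widely listed of these events, was in 2, 3, 2 and 3. Alternative ends of coding exon 3 were in 2 control and 1 LPS library, and those of exon 11 in 1 control and 1 LPS library, with none in either NMN group. Alternative ends of exon 19, with forms of 102 and 86 bases, were in 1 control, 2 LPS, 1 NMN and 2 LPS+NMN libraries. Summed splicing events over all genes numbered 18231 ± 1455 in control, 17209 ± 416 with LPS, 17609 ± 1098 with NMN and 17763 ± 387 with both (SD, n = 3), and their part in the Acsl1 result was not tested.

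**Figure D3:**
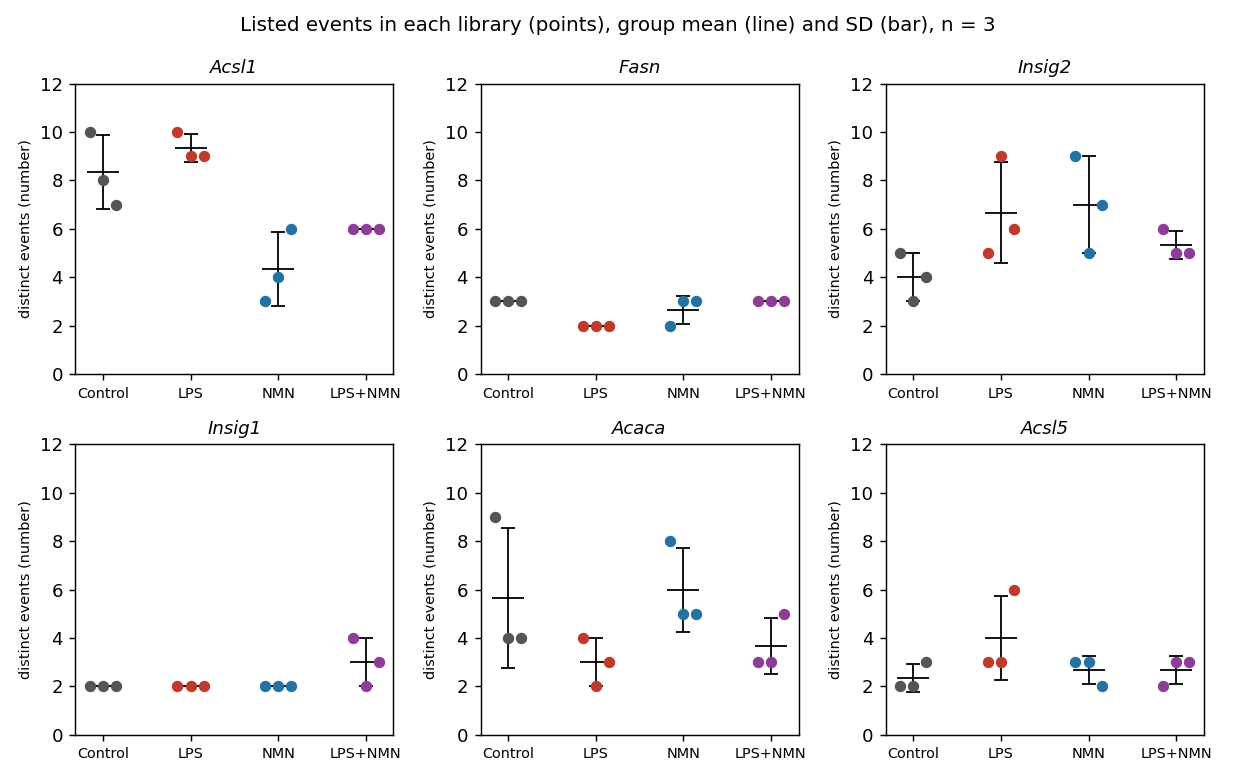
Distinct events in each library (points) of the 6 members with an unadjusted p under 0.05 in at least 1 comparison, with group means (lines) and SD (bars, n = 3). Acsl1 lies at 3 to 6 in the NMN and LPS+NMN groups and at 7 to 10 in the others, and Fasn at 2 in all LPS libraries.

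The other 2 acyl-CoA synthetases had no groups apart. Acsl3, of lipid droplets and the endoplasmic reticulum, had 3, 5 and 3 events in control, 3, 3 and 6 with LPS, 3 in each NMN library, and 3, 4 and 3 with both. Acsl5 had 2, 2 and 3 events in control, 3, 3 and 6 with LPS, 3, 3 and 2 with NMN, and 2, 3 and 3 with both (LPS against control 0.55 ± 0.24, limma adjusted p = 0.623). Without LPS replicate 3, which held 6 events, this difference was 0.28 (adjusted p = 0.817). The first exon of Acsl5-205 was listed in no control library, all 3 with LPS, 2 with NMN and 2 with both. The first exon of the full-length Acsl5-201 (exon 1 of 22) was in 1 control library, all 3 with LPS, 2 with NMN and 2 with both. In the 4 libraries without it (control replicates 1 and 2, NMN replicate 3 and LPS+NMN replicate 1) the single first exon lay upstream of the annotated gene and matched no annotated exon. Summed over the 3 synthetases, events numbered 15, 15 and 13 in control, 16, 15 and 21 with LPS, 9, 10 and 11 with NMN, and 11, 13 and 12 with both. These sums include Acsl1, whose difference in NMN against control was -0.83 ± 0.20. For Acsl3 it was -0.195 ± 0.236 and for Acsl5 0.14 ± 0.24, so the lower sum with NMN is not shared by all 3 genes.

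**Figure D4:**
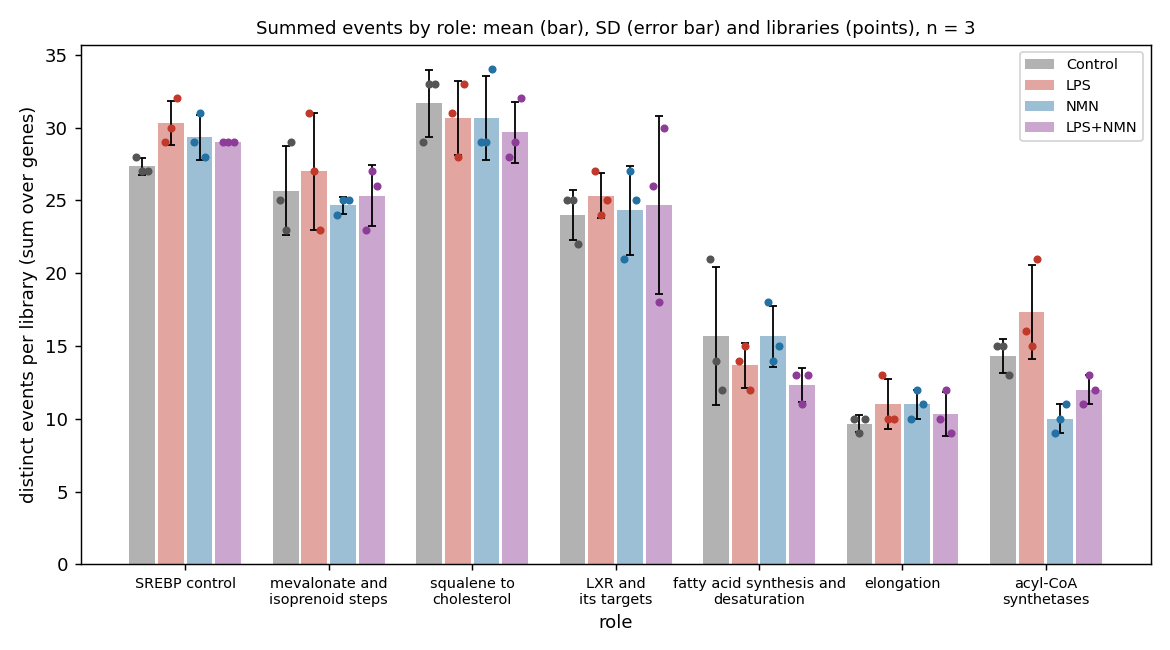
Sum of distinct events over the genes of each role (bars are means, error bars SD, points the 3 libraries of a group). The acyl-CoA synthetases have 9 to 11 events with NMN and 13 to 15 in control, and the SREBP control genes 27 or 28 in control and 29 to 32 with LPS. The former sums include Acsl1 and the latter Insig2, the member of each role with the largest difference in that comparison.

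By type, the 329 distinct events of the set comprised 134 first exons, 73 last exons, 67 alternative exon ends, 48 single skipped exons, 4 runs of skipped exons and 3 retained introns, exact and approximate forms counted apart. First exons per library averaged 61.3 ± 1.53 in control, 63.3 ± 1.53 with LPS, 64.3 ± 0.577 with NMN and 61.7 ± 0.577 with both (SD, n = 3). Last exons averaged 43, 43.7 ± 1.15, 44 ± 1 and 43.3 ± 0.577. Splicing events numbered 49, 43 and 40 in control, 53, 41 and 51 with LPS, 31, 39 and 42 with NMN, and 35, 35 and 45 with both. The splicing counts overlapped between all groups. First exons numbered 61, 60 and 63 in control, 65, 63 and 62 with LPS, 64, 65 and 64 with NMN, and 62, 61 and 62 with both, so that NMN overlapped neither control nor LPS+NMN. Over all genes, first exons numbered 20739, 20005 and 19512 in control, 19639, 20267 and 20608 with NMN, and 20090, 20199 and 20523 with both. Those groups overlapped, and the separation in the set was not tested. Splicing events made up 29.6% ± 2.32 of the set's events in control, 31.0% ± 3.06 with LPS, 25.6% ± 3.10 with NMN and 26.7% ± 2.72 with both. Over all genes the shares were 34.2% ± 1.2, 32.9% ± 0.36, 33.3% ± 0.934 and 33.5% ± 0.323.

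Shared events were mostly annotated transcript ends. Of the 329 events 75 (22.8%) were in all 12 libraries and 106 (32.2%) in 1, against 16.2% and 44.0% of the 141591 events of all genes. Among 128 first exons on the gene's own strand, 75 ended at the splice site of an annotated first exon, 15 at that of an internal exon and 38 at none. Of the 75, 34 were in all 12 libraries and 11 in 1, and of the 38, 0 and 25. Among 63 last exons 51 began at the splice site of an annotated last exon, and 29 of these were in all 12 libraries.

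Few single events of the set switched between groups. Events listed in 3 of 3 libraries on one side and 0 of 3 on the other made up 0.727% of the set's events in LPS against control (1 gained, 1 lost), against 1.21% over all genes. In LPS+NMN against LPS 2 were gained (0.743%, against 0.77%), in NMN against control 1 was gained and 3 lost (1.52%, against 1.02%), and in LPS+NMN against control 0 of 249 switched (against 1.22%). After LPS the first exon of Acsl5-205 was gained and that of Fasn-204 lost. LPS+NMN regained the latter relative to LPS and gained the last exon of Nr1h3-201. With NMN alone the first exon of Nr1h3-207 was gained, and the first exons of Abcg1-201 and Dhcr7-201 and the skipping of Acsl1 exon 2 were lost.

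**Figure D5:**
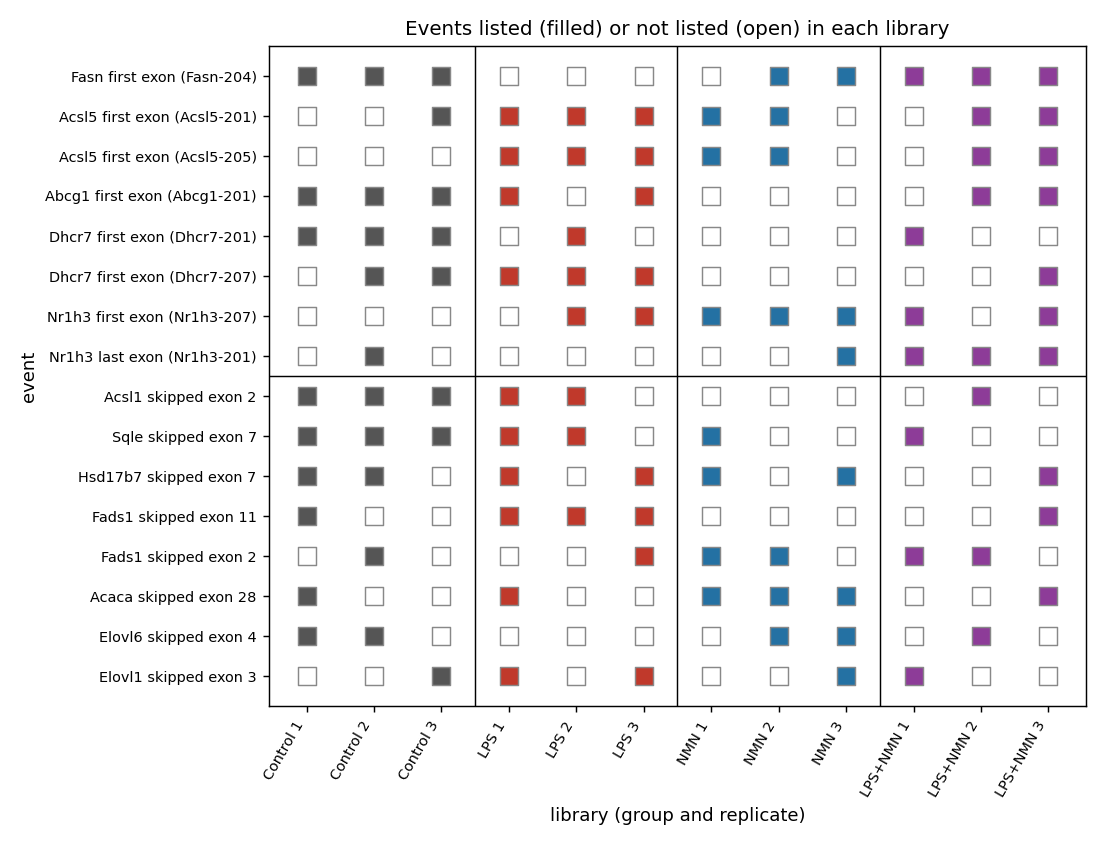
Listing (filled square) or absence (open square) of 16 named events in each of the 12 libraries, coloured by group; the upper 8 are first and last exons and the lower 8 skipped exons. The Fasn-204 first exon is open in all 3 LPS libraries, and the skipping of Acsl1 exon 2 is open in all 3 NMN libraries.

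Of 46 distinct single skipped exons on the gene's own strand, in 22 genes, 35 matched an annotated exon. Of these, 14 were wholly coding, 9 partly coding and 12 noncoding. Among the 14, 8 had a length divisible by 3, so that their removal keeps the reading frame, and 6 did not. The sequences of 5 of these 8 frame-keeping exons and of the coding part of Acsl1 exon 2 are shown as examples. Their skipping was listed in some libraries and not in others. The same held for the frame-keeping exons of Abca1 and Nr1h3, which are not shown. The examples were chosen after these listings were seen. They are the GENCODE M21 transcript sequences, 5′ to 3′, with the skipped coding bases in capitals and up to 12 flanking coding bases in lower case.

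Acsl1 exon 2: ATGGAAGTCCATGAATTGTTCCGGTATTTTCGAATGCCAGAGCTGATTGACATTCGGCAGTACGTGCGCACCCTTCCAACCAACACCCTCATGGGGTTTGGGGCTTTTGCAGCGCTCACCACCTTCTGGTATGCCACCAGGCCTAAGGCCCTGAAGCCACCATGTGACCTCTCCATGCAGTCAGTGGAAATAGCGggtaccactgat
Sqle exon 7: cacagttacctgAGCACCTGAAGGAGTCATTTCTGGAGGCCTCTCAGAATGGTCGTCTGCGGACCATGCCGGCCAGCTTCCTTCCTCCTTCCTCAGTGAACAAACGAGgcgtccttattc
Fads1 exon 2: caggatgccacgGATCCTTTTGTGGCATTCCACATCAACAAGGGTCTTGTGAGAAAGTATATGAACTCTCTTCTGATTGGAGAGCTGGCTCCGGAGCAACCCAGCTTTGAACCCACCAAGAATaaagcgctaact
Fads1 exon 11: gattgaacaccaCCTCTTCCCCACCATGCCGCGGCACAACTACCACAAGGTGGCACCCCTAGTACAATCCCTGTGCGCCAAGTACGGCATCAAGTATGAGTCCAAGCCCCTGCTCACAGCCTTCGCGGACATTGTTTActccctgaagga
Hsd17b7 exon 7: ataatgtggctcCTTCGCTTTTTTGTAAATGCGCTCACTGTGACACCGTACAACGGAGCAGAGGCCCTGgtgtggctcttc
Acaca exon 28: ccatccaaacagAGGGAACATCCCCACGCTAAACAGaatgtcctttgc

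Acsl1 exon 2 (chromosome 8, 46492800 to 46493026, plus strand, GRCm38) has 227 bases, of which the last 195 code and begin with the start codon. Sqle exon 7 (chromosome 15, 59324462 to 59324557, plus strand) has 96 bases. Fads1 exon 2 (chromosome 19, 10184927 to 10185037, plus strand, 111 bases) was listed as skipped in 1 control, 1 LPS, 2 NMN and 2 LPS+NMN libraries. Fads1 exon 11 (10194489 to 10194614, 126 bases) was listed as skipped in 1 control library, all 3 with LPS, none with NMN and 1 with both. Hsd17b7 exon 7 (chromosome 1, 169959423 to 169959479, minus strand, 57 bases), in a reductase of the sterol 3-keto group, was listed in 2, 2, 2 and 1 libraries of control, LPS, NMN and LPS+NMN. Acaca exon 28 (chromosome 11, 84290288 to 84290311, plus strand), of 24 bases, was listed as skipped in 1 control, 1 LPS, all 3 NMN and 1 LPS+NMN library. A skipped-exon listing means that transcripts with and without the exon were both assembled, and gives no ratio of the 2 forms. Exons whose loss shifts the frame included exon 4 of Elovl6-201 (152 bases), listed in 2, 0, 2 and 1 libraries, and exon 3 of Elovl1-201 (191 bases), in 1, 2, 1 and 1.

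Promoters of 31 members were matched in RefSeq (GRCm38.p6), 42 windows from 250 bases before to 50 after a gene start. The sterol response element form TCACNCCAC, searched on both strands, was in 2 of 42 windows (4.76%), against 1.24% of 32851 windows of all genes. They belong to Hmgcs1 and Acsl1, and are shown with up to 30 bases on either side and the match in capitals.

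Hmgcs1 promoter: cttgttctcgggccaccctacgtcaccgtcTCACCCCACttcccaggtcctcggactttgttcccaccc
Acsl1 promoter: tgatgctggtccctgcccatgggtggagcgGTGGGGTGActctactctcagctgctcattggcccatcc

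The Hmgcs1 match begins 137 bases before the start (window chr13:119690101-119690400, plus strand), and the Acsl1 match, on the reverse strand, 76 bases before it (window chr8:46490716-46491015, plus strand). No first exon listed for Acsl1 in these catalogues starts in that window: the one listed in all 12 libraries at an annotated first exon spans 46471037 to 46471230, and the nearest, starting at 46492832, was in 1 control library. The Hmgcs1 first exon listed in all 12 libraries is annotated at 119690446 to 119690513, beyond the end of its window. The letters CCAAT, on either strand, were in 25 of 42 windows (59.5%, against 37.4% of all), and the E-box CACGTG in 8 (19.0%, against 7.15%). These are letter matches and not measured binding.

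Of 51 other genes of these pathways, 40 were in all 12 catalogues, 4 in some and 7 in none. Of 42 tested, limma called 0 in any of the 5 comparisons, and between 0 and 2 had an unadjusted p under 0.05 in each. Over all genes tested, 0% to 0.334% were called and 4.46% to 7.47% had such an unadjusted p. Groups did not overlap for Soat1, which esterifies cholesterol, and Gramd1b, a sterol transporter, in LPS+NMN against LPS. These were 2 of the 42, where 3.22% of all genes tested had separate groups. Soat1 had 9 events in each LPS library and 7 in each with both, as in each NMN library, with 7, 7 and 9 in control. Gramd1b had 13, 13 and 11 with LPS and 8, 10 and 9 with both, but 16, 7 and 12 in control.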

How the data were processed

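Total RNA of 12 BV-2 libraries was sequenced. Per the labels and file headers, the authors deposited 1 list of transcript events per library, with positions and no counts or depth, so the depth is unknown. The submitters' processing notes name BWA 0.7.12, MACS2 2.1.0, HOMER and GRCm38; what program wrote the lists is not given. Groups came from sample titles. Partner lines without the event and 9998 repeated lines were dropped. First and last exons were matched by their inner edge, other events by type, start and end. Most positions are not on GRCm38: events were matched to GENCODE M21 exons by length and spacing with 1 shift per gene (203 of 265 edges), and only annotated GRCm38 positions are printed. Genes with at least 1 event in 3 libraries were tested with limma 3.58.1 in R 4.3.3 (trend, robust, 4 group means, 8 residual degrees of freedom, checked on simulated data); 1500 genes fell below the filter and 1104 were constant. All values per library are given for members with an unadjusted p under 0.05 or separate groups, those not in every library, 15 anchor genes and the 4 with most events. Members, lists and tests were chosen with earlier results of these data known. Alternatives were other pseudocounts, filters, moderation, samples, event classes, a replicate block, a covariate, each library left out and, chosen after seeing the data, only events on the gene's own strand. One further list of cell type markers is not reported here.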

Additional observations from a re-analysis of the deposited data

Results flagged for a closer look

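For 3 members the effect of 1 treatment pointed one way without the other treatment and the opposite way with it, in every library of the treated groups relative to the mean of their reference group. For Insig2 both LPS and NMN alone had more events than control (means of 6.67 and 7 against 4) and both together had fewer than either (5.33); the interaction was -0.91 ± 0.35 (SE, limma adjusted p = 0.68). For Fasn the LPS group lay below control (2 against 3) and LPS+NMN above NMN (3 against 2.67), with an interaction of 0.55 ± 0.19 (limma adjusted p = 0.623). The second difference rests on NMN replicate 1, with 2 events against 3 in the other NMN libraries. For Idi1 NMN lay below control (4 against 4.33) and LPS+NMN above LPS (4 against 3.33), with an interaction of 0.33 ± 0.28 (limma adjusted p = 0.896). Both Idi1 differences rest on 1 reference library each, control replicate 1 with 5 events and LPS replicate 3 with 2. All other libraries held 4. None of these interactions passed the test.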

How the results depend on the processing

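No member was called by limma in any comparison under any alternative, and those with an unadjusted p under 0.05 kept their direction with 1 exception: counting first and last exons only, the Insig2 interaction was 0.0452 (adjusted p = 0.985) instead of -0.91, and the cause was not tested. The counts over all genes moved more. In LPS against control they were 35, and 3 with at least 5 events in 3 libraries, 1 with only the groups compared, 3 with splicing events only, and 32 to 55 with 1 library left out (55 without control replicate 1). In LPS+NMN against LPS they were 0, and 3 with pseudocount 0.5, 6 without trend and robust moderation, 1 with splicing events only, 1 on the own strand only, and 0 to 11 with 1 library left out (11 without LPS replicate 1). In NMN against control they were 27, and 3, 1 and 2 in the first 3 settings, and 27 to 44 with 1 library left out (44, 44 and 43 without control replicates 1, 2 and 3). In LPS+NMN against control they were 39, and 10, 3 and 8 in the same settings, and 32 to 55 with 1 library left out. For the interaction they were 5, and 1 with at least 5 events, 39 without trend and robust moderation, 0 with splicing events only, and 4 to 6 with 1 library left out. With the replicate number as a block (replicate block) the calls were 33, 0, 26, 32 and 4 in that order, with 0 members. Same-numbered libraries did not deviate together (18 pairs, r from -0.03 to 0.02), and 4 of 12 libraries correlated best with their own number, so the numbers are taken as names only. The number of members with separate groups ranged from 0 to 4 in LPS against control, 1 to 3 in LPS+NMN against LPS, 0 to 4 in NMN against control and 0 to 3 in LPS+NMN against control over event classes and libraries left out. The depth is unknown, so an event that is not listed cannot be told apart from one not sequenced deeply enough.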
